A study of Mus musculus with 12 samples.

Results

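The unfolded protein response and the integrated stress response were followed through 32 genes among 35944 mouse genes with a matched transcript. The genes were chosen by name for their place in the pathway and not by a rule on measured values, but with earlier results of these data known. All 32 passed the count filter, which left 15485 genes for testing. Messenger RNA was sequenced from 12 subcutaneous tumours of 4T1, a mouse mammary carcinoma line that grows in immune-competent BALB/c mice. The study asked what microRNAs carried by endothelial extracellular vesicles (EVs) do in a tumour. Female mice 6 to 8 weeks old received 100000 4T1 cells in the flank, and 3 µg of EVs were then injected beside the tumour every 2 days until harvest on day 21. The EVs of all 4 groups came from MS-1, a mouse endothelial line, and were loaded by electroporation with a synthetic microRNA. The control group (ctrl) received EVs with cel-miR-67, a nematode microRNA, and the other groups received EVs with 1 of the mouse microRNAs miR-142-5p, miR-222-3p and miR-183-5p. Each group held 3 tumours, and there was no group without EVs or without tumour cells. The labels do not say more about the tumours of a group than that they are separate samples, so the p-values measure the spread between these samples. RNA came from whole tumours, so fewer cells of a type and less RNA per cell cannot be told apart.

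When client proteins fail to fold in the endoplasmic reticulum (ER), sensors in its membrane start a programme that adds chaperones, degrades misfolded proteins and slows translation. IRE1 (Ern1) removes a short stretch from the messenger RNA of Xbp1 and so switches it to an active transcription factor, ATF6 is cleaved to release its own transcription factor domain, and PERK (Eif2ak3) phosphorylates eIF2α. Phosphorylated eIF2α, which other kinases also produce on amino acid shortage or other stress, favours translation of ATF4, and this branch is called the integrated stress response (ISR). In tumours both responses are known as adaptations of cancer and immune cells to hypoxia, nutrient shortage and high secretory load. Since much of the control lies in splicing, cleavage, phosphorylation and translation, messenger RNA levels show only the transcriptional side.

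The mature mouse microRNAs after which the EV cargoes were named are shown because each comparison is named for one of them. The synthetic miR-222-3p listed in the paper is shorter at its 3′ end than the form shown. The sequences are those of RefSeq on build GRCm38.p6, with the seed (bases 2 to 8) in capitals.
mmu-miR-142a-5p, chr11:87756867-87756887, plus strand: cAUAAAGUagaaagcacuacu
mmu-miR-183-5p, chr6:30169711-30169732, minus strand: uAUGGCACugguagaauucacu
mmu-miR-222-3p, chrX:19146901-19146923, minus strand: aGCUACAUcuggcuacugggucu
The 3 seeds differ from each other. A complement of the whole seed was present in the 3′ UTR of 4 of the 32 genes for miR-142-5p (Pdia3, Pdia6, Herpud1 and Sel1l), against 14.3% of 14276 UTRs searched. For miR-183-5p it was present in 3 genes (Dnajc3, Sel1l and Ern1), against 9.38% of UTRs, and for miR-222-3p in 6 genes (Canx, Dnajc3, Sel1l, Ern1, Atf6 and Xbp1), against 9.55%. Sel1l, an adaptor of the ER degradation complex, was the gene whose UTR held a match to every one of them. The matches in Herpud1 and Xbp1 are shown because both genes are described below, with the match in capitals.
Herpud1, miR-142-5p, UTR bases 430 to 437: aagtgtactACTTTATAtaatca
Xbp1, miR-222-3p, UTR bases 640 to 646: cttcaaactATGTAGCcgaggc
A match is a description of the letters and not a measured target site.

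Promoters of the pathway carry short elements read by its transcription factors, and these were searched on both strands in the RefSeq promoters (250 bases before and 50 after the start site), of which 29 of the 32 genes had one. The ER stress response element (ERSE), read by ATF6 with NF-Y, was searched as CCAAT, 9 bases of any kind and CCACG. It was found in 8 of the 29 genes and in 0.119% of all 32851 promoters. The copies are shown with the fixed bases in capitals, each read along the strand on which it matched.
Hspa5, 47 bases before the start site: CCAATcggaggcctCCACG
Calr, 144 bases before, opposite strand: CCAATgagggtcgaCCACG
Hsp90b1, 194 bases before: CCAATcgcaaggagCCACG
Hsp90b1, 89 bases before, opposite strand: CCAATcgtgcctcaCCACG
Canx, 127 bases before: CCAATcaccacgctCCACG
Pdia6, 80 bases before: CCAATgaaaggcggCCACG
Dnajc3, 87 bases before: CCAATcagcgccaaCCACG
Creld2, 108 bases before, opposite strand: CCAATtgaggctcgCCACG
Syvn1, 26 bases before: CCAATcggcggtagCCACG
ERSE was defined in part on promoters of these genes, so the count describes the genes and is no finding about the tumours.

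The related element ERSE-II (ATTGG, 1 base of any kind, CCACG) was found in Herpud1 and Dnajb11 and in 0.0365% of all promoters. The XBP1 core TGACGTG was found in Hspa5 and in 2.01% of all promoters. The core read by ATF4 and CHOP (TGATG, 1 base of any kind, AA, then C or T) was found in Asns, Chac1 and Herpud1 and in 1.77% of all promoters. None of these matches overlapped another. The promoters of Hspa5, Herpud1 and Chac1 are shown in full on the strand of the gene, the first as that of the most abundant gene and the others for the results below, with every match in capitals.
Hspa5, chr2:34771840-34772139, plus strand: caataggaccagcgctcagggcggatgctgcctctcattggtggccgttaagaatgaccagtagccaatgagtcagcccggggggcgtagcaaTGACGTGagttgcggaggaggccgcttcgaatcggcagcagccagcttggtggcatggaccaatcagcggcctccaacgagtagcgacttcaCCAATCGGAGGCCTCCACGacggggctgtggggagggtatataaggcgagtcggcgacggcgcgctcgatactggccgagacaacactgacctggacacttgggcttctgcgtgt
Herpud1, chr8:94386179-94386478, plus strand: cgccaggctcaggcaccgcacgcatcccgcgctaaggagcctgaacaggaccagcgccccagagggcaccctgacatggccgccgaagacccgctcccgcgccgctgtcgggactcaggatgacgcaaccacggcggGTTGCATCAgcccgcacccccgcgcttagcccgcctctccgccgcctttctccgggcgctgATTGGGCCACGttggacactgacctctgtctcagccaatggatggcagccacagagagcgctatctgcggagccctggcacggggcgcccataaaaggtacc
Chac1, chr2:119350992-119351291, plus strand: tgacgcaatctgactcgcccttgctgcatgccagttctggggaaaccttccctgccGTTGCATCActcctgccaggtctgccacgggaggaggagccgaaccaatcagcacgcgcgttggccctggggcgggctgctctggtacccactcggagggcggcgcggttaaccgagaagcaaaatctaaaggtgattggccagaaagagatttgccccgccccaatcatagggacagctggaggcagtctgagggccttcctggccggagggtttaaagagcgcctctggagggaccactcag

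The libraries held 20285968 to 27021401 estimated reads each. Levels are given as TPM, the number of a gene's transcripts in a fixed number of all transcripts, which takes account of length and so allows different genes to be compared. In 4 libraries, those of the miR-222-3p tumours and of miR-183-5p tumour 3, the mitochondrial pseudogene Gm28661 took 0.000621% to 0.324% of the reads that it and mt-Co2 received together, against 7.13% to 41.8% in the other 8. Every ctrl and miR-142-5p library was in one of these sets and every miR-222-3p library in the other, so for miR-222-3p against ctrl the sets and the groups cannot be told apart. Fold changes and counts of miR-183-5p against another group are therefore also given without its tumour 3. Summed markers of tumour epithelium ranged from 1670 to 2594 TPM over the 12 tumours, of macrophages from 1135 to 2723, of neutrophils from 1081 to 3431, of fibroblasts from 296 to 1398 and of endothelium from 66.1 to 122. Markers of adipocytes ranged from 48.6 to 81.2 TPM, of erythroid cells from 150 to 761, of the hypoxia response from 3130 to 5431 and of skeletal muscle from 13.6 to 25.7 TPM in all tumours but miR-183-5p tumour 3, where they reached 336 TPM. The T and NK lymphocyte markers ranged from 28.6 to 86.7 TPM and the B and plasma cell markers from 141 to 255 TPM, except in miR-142-5p tumour 3, where they stood at 200 and 2128 TPM.

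The 32 genes together made up 5052 to 6612 TPM of each tumour, or 0.505% to 0.661% of all transcripts. The median of their mean levels was 48.0 TPM, against 15.3 TPM over all genes tested. Hspa5, which encodes the ER HSP70 chaperone BiP, was the most abundant, with a mean of 1082 TPM and rank 138 of the 15485 genes. Its level was 923, 1117 and 1169 TPM in the ctrl tumours, 1102, 934 and 1087 TPM with miR-142-5p, 1146, 981 and 1439 TPM with miR-183-5p and 925, 1205 and 957 TPM with miR-222-3p. The value of miR-183-5p tumour 3 stood above all others, and the other 11 lay between 923 and 1205 TPM with the 4 groups overlapping.

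Among the other chaperones, the lectin chaperone Calr stood at a mean of 758 TPM, the ER HSP90 Hsp90b1 at 613 TPM and the membrane lectin chaperone Canx at 257 TPM. The co-chaperones and nucleotide exchange factor were lower, with means of 71.8 TPM for Dnajb11, 65.7 TPM for Hyou1, 39.03 TPM for Dnajc3, 37.3 TPM for Sdf2l1 and 28.4 TPM for Dnajb9. The disulphide isomerases, which form and reshuffle cysteine bonds, reached 535 TPM for P4hb, 450 TPM for Pdia3, 396 TPM for Pdia6 and 172 TPM for Pdia4. The secreted stress proteins Manf and Creld2 stood at 224 and 49.7 TPM. The 8 genes with an ERSE copy had a median mean level of 326 TPM and the other 21 genes with a promoter entry one of 38.4 TPM. These sets differ in role, and ERSE was defined in part on promoters of these genes. The values therefore show no link between the element and level in these tumours. Manf, Hyou1 and Atf6 had no promoter entry and are in neither set.

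The sensors were among the less abundant of the 32 genes, at 24.9 TPM for Atf6, 16.3 TPM for Ern1 and 11.4 TPM for Eif2ak3. Of the transcription factors, Atf4 stood at 191 TPM, Xbp1 at 136 TPM, the pro-apoptotic CHOP gene Ddit3 at 44.6 TPM and Atf3 at 28.8 TPM. In ER-associated degradation, the mannosidase-like Edem1 stood at 46.2 TPM, the membrane protein Herpud1 at 38.4 TPM, the ubiquitin ligase Syvn1 (HRD1) at 28.5 TPM and its partner Sel1l at 28.3 TPM. Among ISR targets and feedback genes, the asparagine synthetase Asns stood at 34.6 TPM, the eIF2α phosphatase subunit Ppp1r15a (GADD34) at 24.5 TPM, the pseudokinase Trib3 at 23.5 TPM and Chac1, which degrades glutathione, at 5.30 TPM. The translocon subunit Sec61b was at 189 TPM and the translocon-associated Ssr1 at 52.6 TPM. In all, 12 genes had a mean above 100 TPM, 19 had a mean of 10 to 100 TPM, and Chac1 alone was below 10 TPM.

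**Figure D1:**
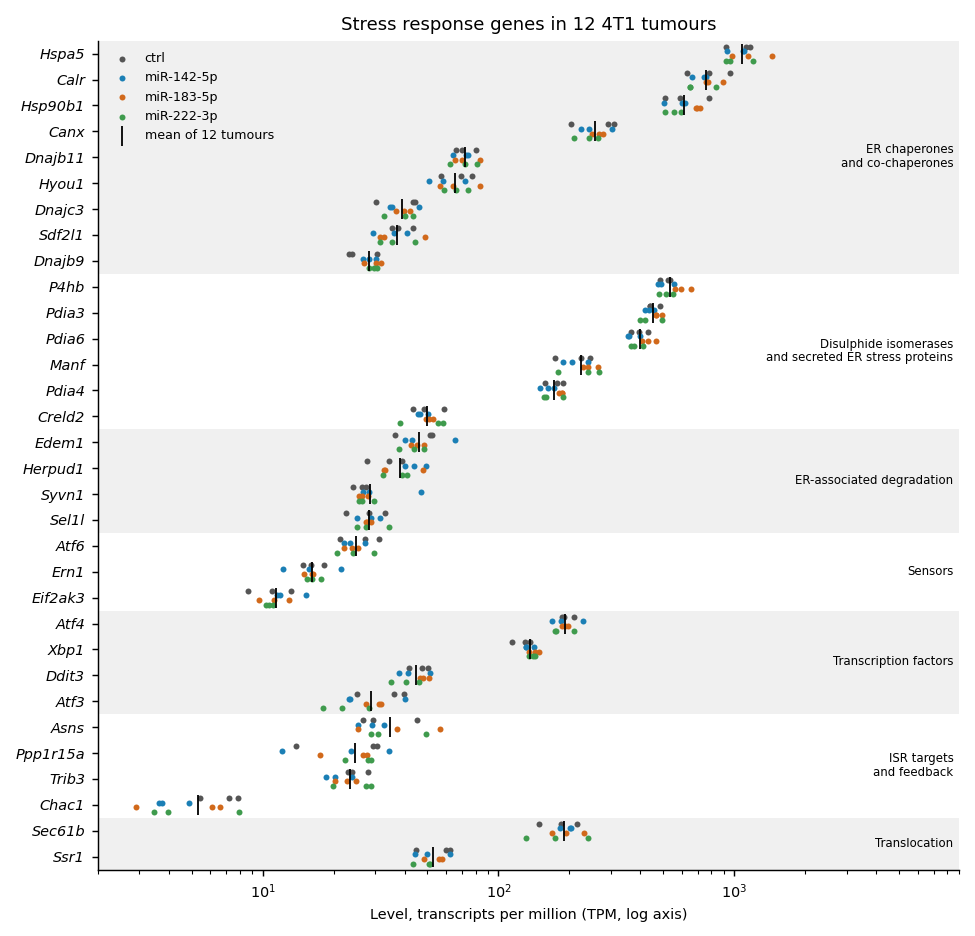
Level of each of the 32 genes in TPM (log axis), grouped by role; each point is 1 tumour coloured by its EV cargo and the black bar is the mean of 12 tumours. Hspa5, with a mean of 1082 TPM, and Chac1, with 5.30 TPM, mark the ends, and the points of the 4 groups lie over each other for most genes.

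The spread between tumours was small for most of the genes. The ratio of the highest to the lowest tumour was under 2 for 28 genes and 2 or more for Atf3, Asns, Chac1 and Ppp1r15a. Normalised counts are reads scaled for library size and gene length, used here to compare a gene between tumours. On the scale of log2(normalised count + 1), the median SD over the 12 tumours was 0.19 for the 32 genes and 0.23 for all genes tested. Among genes with a mean normalised count of at least 1000, the median was 0.16 for 22 of the 32 genes. It was also 0.16 for all 5502 genes at that level. Both sets share only this lower limit and were not matched in abundance above it.

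The genes that varied most were 3 ISR targets and feedback genes. Chac1 had an SD of 0.49, and its level was 5.42, 7.83 and 7.22 TPM in the ctrl tumours, 3.73, 3.65 and 4.87 TPM with miR-142-5p, 6.09, 2.91 and 6.62 TPM with miR-183-5p and 3.95, 3.46 and 7.91 TPM with miR-222-3p. It rested on 75 to 227 estimated reads per tumour, the fewest of the 32 genes. Ppp1r15a also had an SD of 0.49, with 29.4, 13.9 and 30.4 TPM in the ctrl tumours, 34.4, 12.0 and 23.7 TPM with miR-142-5p, 27.6, 26.6 and 17.6 TPM with miR-183-5p and 27.8, 22.3 and 28.7 TPM with miR-222-3p. Its highest and lowest tumours were both in the miR-142-5p group. Asns had an SD of 0.39, with 26.5, 45.0 and 29.5 TPM in the ctrl tumours, 29.2, 25.3 and 32.6 TPM with miR-142-5p, 37.0, 25.3 and 56.4 TPM with miR-183-5p and 28.9, 30.9 and 49.1 TPM with miR-222-3p. One tumour in each of the ctrl, miR-183-5p and miR-222-3p groups stood well above its 2 companions.

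The genes that varied least were Xbp1, Sel1l and Pdia4. Xbp1 had an SD of 0.09, with 115, 130 and 136 TPM in the ctrl tumours, 131, 130 and 141 TPM with miR-142-5p, 142, 134 and 149 TPM with miR-183-5p and 134, 143 and 140 TPM with miR-222-3p. Sel1l had an SD of 0.11, with 22.5, 28.3 and 33.1 TPM in the ctrl tumours, 25.0, 28.8 and 31.4 TPM with miR-142-5p, 27.4, 28.7 and 27.8 TPM with miR-183-5p and 34.2, 27.5 and 25.2 TPM with miR-222-3p. Pdia4 had an SD of 0.12, with 157, 187 and 177 TPM in the ctrl tumours, 162, 150 and 171 TPM with miR-142-5p, 186, 187 and 180 TPM with miR-183-5p and 159, 188 and 155 TPM with miR-222-3p. The 3 groups other than miR-183-5p each held a tumour below 162 TPM.

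In some tumours most of the genes lay on one side of their mean. In miR-183-5p tumour 3, 26 of the 32 genes were above their own mean over the 12 tumours, and in miR-142-5p tumour 1, 24 were. In miR-142-5p tumour 2 and miR-222-3p tumour 1, 26 and 27 genes were below it. The share of all genes above or below their mean in these tumours was not taken. The chaperones had a median deviation of 0.24 on the log2 scale in miR-183-5p tumour 3 and of -0.30 in miR-222-3p tumour 1. Both of these tumours are in the set with the lower Gm28661 share. The degradation genes went another way, with their highest median deviation, 0.35, in miR-142-5p tumour 3, and the ISR targets had theirs, 0.50, in miR-222-3p tumour 3.

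**Figure D2:**
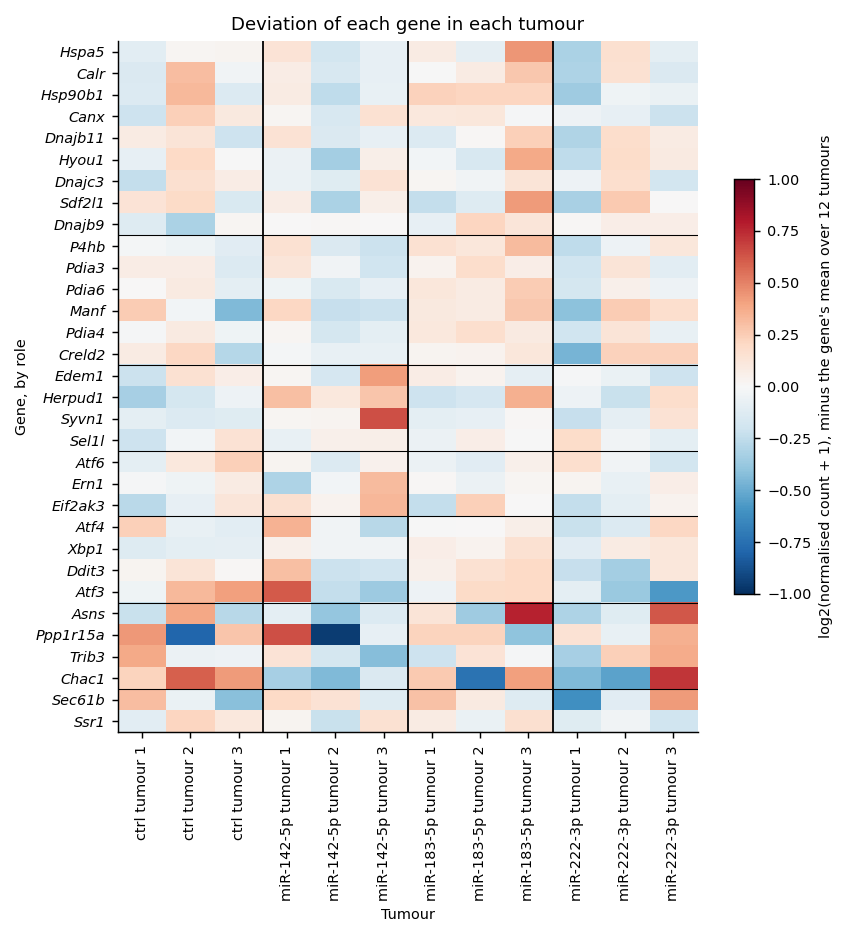
Deviation of each of the 32 genes (rows, by role) from its own mean over 12 tumours (columns, by EV cargo), as log2(normalised count + 1); red is above and blue below the mean. The chaperone and isomerase rows shift together within miR-183-5p tumour 3 and miR-222-3p tumour 1, while the ISR rows vary from tumour to tumour in every group.

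None of the 32 genes passed an adjusted p of 0.05 in any comparison (DESeq2, Benjamini-Hochberg over all genes tested). The counts over all genes were themselves low, at 1 gene of 15438 for miR-142-5p against ctrl (0.00648%), 5 genes for miR-222-3p (0.0324%) and 0 genes for miR-183-5p (0%). At an unadjusted p under 0.05 stood 3 of the 32 genes for miR-142-5p, against 3.58% of all genes. There was 1 such gene for miR-222-3p, against 2.32%, and 1 for miR-183-5p, against 3.21%. These counts rest on 1 to 3 genes each, so little can be read from their distance to the background. Without miR-183-5p tumour 3 the count for miR-183-5p was 0, with no share of all genes taken for that fit. edgeR's quasi-likelihood test called 0 of the 32 genes in each comparison too, with 0 to 2 of them at an unadjusted p under 0.05. No share of all genes was taken for edgeR, so these counts cannot be set against a background.

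The intervals bound what these tumours can show. For miR-142-5p against ctrl the 95% interval of the fold change lay within 2-fold in either direction for 31 of the 32 genes, all but Chac1, and within 1.5-fold for 24. For miR-183-5p the counts were 31, again all but Chac1, and 26. For miR-222-3p they were 30, all but Chac1 and Atf3, and 28. Standard errors ran from 0.09 for the steadiest genes to 0.37 for Chac1 on the log2 scale.

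**Figure D3:**
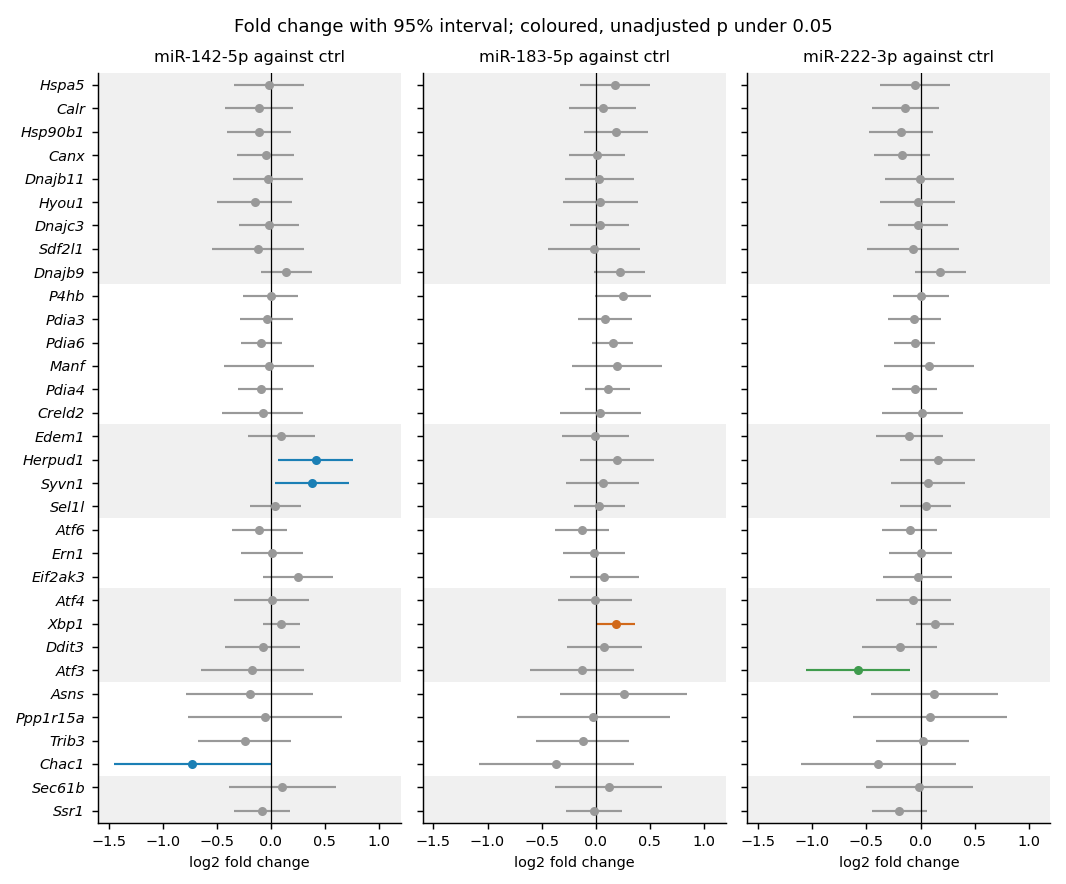
Log2 fold change of each of the 32 genes against ctrl (points) with its 95% interval (bars) for the 3 microRNA groups, by role; coloured points have an unadjusted p under 0.05 in DESeq2. Most intervals cross 0, and those of Chac1 are the widest, with a standard error of 0.37.

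Tumours given miR-142-5p EVs differed little from ctrl tumours in chaperones. The median log2 fold change of the 32 genes was -0.04, against -0.0047 for all genes, and 10 genes were higher and 22 lower. Of the 9 chaperones 8 were lower and 1 higher, between -0.15 and 0.14, and all 6 isomerases and secreted proteins were lower, by at most 0.09. All 4 degradation genes were higher, with a median of 0.24, and all 4 ISR targets were lower, with a median of -0.22. These are directions of fitted values and not calls.

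Herpud1, a membrane organiser of the degradation complex, had the lowest p of the 32 genes in this comparison. Its normalised count was 754, 841 and 915 in the ctrl tumours and 1172, 1021 and 1153 with miR-142-5p. The groups did not overlap, with means of 837 ± 80.7 and 1115 ± 81.9 (SD, n = 3). The log2 fold change was 0.41 with an SE of 0.18 (DESeq2, unadjusted p = 0.0184, adjusted p = 1). It was 824, 844 and 1215 with miR-183-5p and 914, 813 and 1072 with miR-222-3p, and both of these groups overlapped ctrl. Of the other genes with a seed match to miR-142-5p, Sel1l was at 0.04, Pdia3 at -0.04 and Pdia6 at -0.09 on the log2 scale in this comparison.

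Syvn1, the ubiquitin ligase HRD1, had a normalised count of 1320, 1288 and 1298 in the ctrl tumours and 1433, 1443 and 2206 with miR-142-5p. Its log2 fold change was 0.38 with an SE of 0.17 (DESeq2, unadjusted p = 0.0282, adjusted p = 1). Tumour 3 set most of that value, and without it the log2 fold change was 0.14 (DESeq2, unadjusted p = 0.284). The same tumour held the B and plasma cell markers at 2128 TPM and the T and NK lymphocyte markers at 200 TPM, and their part in the result was not tested. Edem1, at 65.1 TPM against 36.5 to 52.2 TPM in the other 11 tumours, and Ern1, at 21.5 TPM against 12.2 to 18.2 TPM, also had their highest value in that tumour.

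Chac1, a target of ATF4 and CHOP, was lower with miR-142-5p. Its normalised count was 140, 182 and 162 in the ctrl tumours and 95.3, 88.3 and 109 with miR-142-5p, with no overlap. The log2 fold change was -0.73 with an SE of 0.37 and an interval from -1.45 to -0.0011 (DESeq2, unadjusted p = 0.0496, adjusted p = 1). The value was also low, at 71.6 to 88.2, in miR-183-5p tumour 2 and in miR-222-3p tumours 1 and 2, while miR-222-3p tumour 3 had the highest of all, 198. Counting Herpud1, Syvn1, Chac1 and Xbp1, 4 of the 32 genes had groups that did not overlap for miR-142-5p, against 6.08% of all genes.

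Tumours given miR-183-5p EVs had 22 of the 32 genes higher than ctrl and 10 lower, with a median log2 fold change of 0.05 against -0.01 for all genes. Without tumour 3 the counts were 18 and 14, with a median of 0.02. Of the chaperones 8 of 9 were higher, by at most 0.22, but without tumour 3 there were 4 higher and 5 lower, and their median turned from 0.04 to -0.01. All 6 isomerases and secreted proteins were higher, with a median of 0.13 and at most 0.25, the value of P4hb, and all 6 were higher without tumour 3 too, with a median of 0.11. Of the 4 ISR targets 3 were lower. Asns was higher by 0.26 (DESeq2, unadjusted p = 0.387), and its direction turned without tumour 3, where it was at -0.09 (DESeq2, unadjusted p = 0.762).

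Xbp1, the factor spliced by IRE1, had a normalised count of 3478, 3547 and 3571 in the ctrl tumours and 3962, 3880 and 4213 with miR-183-5p. The groups did not overlap, but the difference was small, with means of 3532 ± 48.6 and 4018 ± 174 (SD, n = 3). The log2 fold change was 0.19 with an SE of 0.09 (DESeq2, unadjusted p = 0.0346, adjusted p = 1), and without miR-183-5p tumour 3 it was 0.15 (DESeq2, unadjusted p = 0.141). Xbp1 was also 3932, 3698 and 3697 with miR-142-5p and 3515, 4009 and 4109 with miR-222-3p, so that the ctrl tumours were the lowest group on average. Its log2 fold change was 0.10 with an SE of 0.09 for miR-142-5p and 0.13 with an SE of 0.09 for miR-222-3p (DESeq2, unadjusted p = 0.276 and 0.126, adjusted p = 1 for both). The 3 comparisons share the ctrl tumours. Of the other genes with a seed match to miR-222-3p, the log2 fold change with that microRNA was -0.17 for Canx, -0.10 for Atf6, -0.02 for Dnajc3, 0.05 for Sel1l and 4.95e-05 for Ern1.

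The stretch that IRE1 removes from Xbp1 is shown because it sets the activity of the protein. IRE1 cuts in a pair of RNA loops. In Xbp1-201 a search for such loops (CNGCAGC) gave 1 pair at this distance, and the 26 bases between the cuts are in capitals.
Xbp1-201, bases 795 to 863: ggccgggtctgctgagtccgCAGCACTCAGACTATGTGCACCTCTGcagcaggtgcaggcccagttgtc
All annotated Xbp1 forms that reach this place hold the unspliced sequence. Reads were assigned to these forms, so the values above are total Xbp1, and the spliced share was not analysed here.

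P4hb had groups that did not overlap between miR-183-5p and ctrl, at 26180, 25480 and 29430 against 23270, 22950 and 21790 normalised counts, with a log2 fold change of 0.25 (DESeq2, unadjusted p = 0.0543, adjusted p = 1) and of 0.19 without tumour 3. With Xbp1, Syvn1 and Pdia4 this made 4 of the 32 genes, against 9.2% of all genes, and without tumour 3 the same 4, against 15.2%. The neutrophil markers, at 2408 to 3431 TPM against 1491 to 2164 TPM in ctrl, and the hypoxia markers, at 4750 to 5431 TPM against 3948 to 4298 TPM, stood higher in the miR-183-5p tumours without overlap. So did the fibroblast markers, at 932 to 1127 TPM against 408 to 924 TPM, while the macrophage markers were lower, at 1135 to 1716 TPM against 1729 to 2186 TPM. Their part in the values of Xbp1 and P4hb was not tested.

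Tumours given miR-222-3p EVs had 12 of the 32 genes higher than ctrl and 20 lower, with a median log2 fold change of -0.03 against -0.01 for all genes. Of the chaperones 8 of 9 were lower, by at most 0.18, and the isomerases and secreted proteins were divided, with 3 higher and 3 lower. Atf3, a stress-induced transcription factor that acts downstream of ATF4 and other signals, had a normalised count of 798, 1027 and 1088 in the ctrl tumours and 768, 634 and 550 with miR-222-3p. The groups did not overlap, though the lowest ctrl tumour and the highest miR-222-3p tumour were close. The log2 fold change was -0.58 with an SE of 0.25 and an interval from -1.06 to -0.10 (DESeq2, unadjusted p = 0.0184, adjusted p = 1). Atf3 was 1258, 696 and 636 with miR-142-5p and 791, 936 and 940 with miR-183-5p. It was the only one of the 32 genes without overlap between miR-222-3p and ctrl, against 5.52% of all genes. The erythroid markers, at 150 to 272 TPM against 361 to 450 TPM in ctrl, were lower in the miR-222-3p tumours without overlap, and their part in the result was not tested.

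Hspa5, Atf4 and Ddit3 overlapped ctrl in all 3 groups. Hspa5 had a log2 fold change of -0.02 for miR-142-5p, -0.05 for miR-222-3p and 0.18 for miR-183-5p, each with an SE of 0.16 (DESeq2, unadjusted p = 0.908, 0.751 and 0.274, adjusted p = 1 for each). Without miR-183-5p tumour 3 the last value was 0.02. Atf4 had normalised counts of 5779, 4641 and 4540 in the ctrl tumours, 6231, 4762 and 4034 with miR-142-5p, 4883, 4911 and 5099 with miR-183-5p and 4202, 4439 and 5635 with miR-222-3p. Its log2 fold changes, in that order, were 0.01, -0.01 and -0.07, each with an SE of 0.18 (DESeq2, unadjusted p = 0.971, 0.971 and 0.701, adjusted p = 1 for each), and their intervals reached at most 0.41 from 0. Ddit3 had normalised counts of 500, 538 and 494 in the ctrl tumours, 604, 423 and 429 with miR-142-5p, 509, 546 and 566 with miR-183-5p and 419, 387 and 533 with miR-222-3p. In the same order its log2 fold changes were -0.07, 0.08 and -0.19, each with an SE of 0.18 (DESeq2, unadjusted p = 0.672, 0.65 and 0.271, adjusted p = 1 for each). With its second, short identifier added, which was chosen after seeing the data, the signs turned, to -0.02 for miR-183-5p and 0.08 with miR-222-3p. That identifier held at most 5.09 reads but up to 24.95 TPM in a tumour, and TPM sets the weight of its length in the offset. The value of Ddit3 for miR-183-5p was 0.04 without tumour 3, and that of Atf4 was -0.03.

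**Figure D4:**
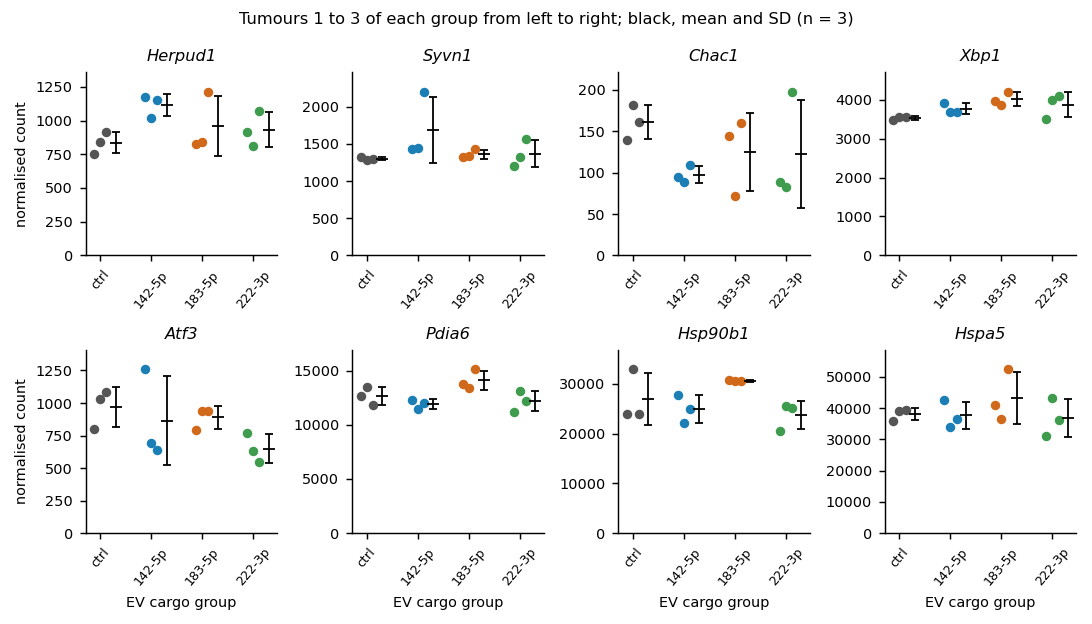
Normalised count of 8 genes in each tumour by EV cargo group (axes start at 0); points are single tumours and black bars are the mean and SD (n = 3). Herpud1 and Chac1 separate miR-142-5p from ctrl, the Syvn1 value of 2206 stands alone, and Hspa5 overlaps in all groups.

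Between the microRNA groups the 32 genes were also tested directly. None passed an adjusted p of 0.05 (DESeq2), where 0.0518% of all genes did when miR-183-5p was set against miR-142-5p and 0.0389% when it was set against miR-222-3p. The share was 0.0453% when miR-142-5p was set against miR-222-3p. In these 3 comparisons 1, 2 and 0 of the 32 genes had an unadjusted p under 0.05 (DESeq2), against 7.94%, 3.25% and 3.63% of all genes. Without miR-183-5p tumour 3 the count was 1 in each of the comparisons with miR-183-5p, with no share of all genes taken for that fit. In the test of any difference among the 4 groups, 0 of the 32 genes passed an adjusted p of 0.05 and 0 an unadjusted p of 0.05, against 0.0595% and 4.74% of all genes.

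With all tumours included, the isomerase Pdia6 gave the lowest p among these direct comparisons. Its normalised count was 13730, 13430 and 15100 with miR-183-5p, 12300, 11420 and 11960 with miR-142-5p and 11210, 13110 and 12210 with miR-222-3p, beside 12670, 13450 and 11830 in ctrl. All 3 miR-183-5p tumours stood above all tumours of the other microRNA groups, while ctrl overlapped them. The log2 fold change was 0.24 with an SE of 0.10 against miR-142-5p (DESeq2, unadjusted p = 0.0110, adjusted p = 0.412) and 0.21 with an SE of 0.10 against miR-222-3p (DESeq2, unadjusted p = 0.0289, adjusted p = 0.999). Without miR-183-5p tumour 3 these values were 0.19 and 0.16. The second is no check on the Gm28661 sets, which coincide with the groups against miR-222-3p once that tumour is left out.

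Hsp90b1, the ER HSP90, had normalised counts of 30810, 30540 and 30540 with miR-183-5p and 20530, 25550 and 25110 with miR-222-3p. In ctrl it was 23870, 32910 and 23920, and with miR-142-5p 27810, 22110 and 24990. The 3 miR-183-5p tumours were close to each other, and 1 ctrl tumour exceeded them. The log2 fold change of miR-183-5p against miR-222-3p was 0.37 with an SE of 0.15 (DESeq2, unadjusted p = 0.0153, adjusted p = 0.999), and without miR-183-5p tumour 3 it was 0.37. Without that tumour the Gm28661 sets and the groups coincide in this comparison, so the second value is no check on them. All 9 chaperones and all 6 isomerases and secreted proteins were higher with miR-183-5p than with either other microRNA, with medians of 0.10 and 0.21 against miR-142-5p and of 0.06 and 0.15 against miR-222-3p. These comparisons share the miR-183-5p tumours. Without tumour 3, 7 of the chaperones were higher against miR-142-5p and 6 against miR-222-3p, with medians of 0.04 and 0.02, and 6 and 5 of the isomerases and secreted proteins, with medians of 0.17 and 0.16. Against miR-142-5p the miR-183-5p tumours also held more neutrophil markers, at 2408 to 3431 TPM against 1081 to 2124 TPM, more fibroblast markers, at 932 to 1127 TPM against 296 to 784 TPM, and less of the macrophage markers, at 1135 to 1716 TPM against 1860 to 2723 TPM. Against miR-222-3p they held more of the hypoxia markers, at 4750 to 5431 TPM against 3506 to 4285 TPM, and of the erythroid markers, at 435 to 761 TPM against 150 to 272 TPM. The part of these markers in the values was not tested.

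Pairs of genes that the pathway links were correlated across the 12 tumours on log2(normalised count + 1), with 10 pairs tested. Hspa5 and Sdf2l1, a chaperone and a co-chaperone of its complex, had r = 0.73 (permutation p = 0.00583, adjusted over 10 pairs 0.0469) and rho = 0.63 (permutation p = 0.0320, adjusted 0.0976). Without miR-183-5p tumour 3 and miR-222-3p tumour 1, the tumours farthest from the median of Hspa5, r was 0.40, so its size depended on them. They were the highest and lowest in Hspa5, and a narrower range can itself lower r. Within the 8 libraries with the higher Gm28661 share, which leave out the same tumours, r was 0.21 (exact permutation p = 0.596).

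Atf4 and Ddit3, its target in the ISR, had r = 0.72 (permutation p = 0.00938, adjusted 0.0469) and rho = 0.73 (permutation p = 0.00846, adjusted 0.0846). Without ctrl tumour 1 and miR-142-5p tumour 1, the farthest from the median of Atf4, r was 0.69. Within the 8 libraries r was 0.67 (exact permutation p = 0.0678), and on the log2(TPM + 1) scale over 12 tumours it was 0.56, with an adjusted permutation p of 0.139. The other set of 4 libraries was too small for a value of its own.

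Hspa5 and Hsp90b1 had r = 0.63 (permutation p = 0.0247, adjusted 0.0824) and rho = 0.64 (permutation p = 0.0306, adjusted 0.0976), with r = 0.41 without the same pair of tumours as above and r = 0.54 within the 8 libraries (exact permutation p = 0.166). Neither this pair nor the other 7 passed an adjusted p of 0.05 for r, and no pair passed it for rho. The other 7 pairs had adjusted permutation p of 0.141 to 0.699 for r and of 0.0976 to 0.717 for rho. Within the 8 libraries the lowest adjusted p of the 10 pairs was 0.339 (exact permutation). Across all 12 tumours Xbp1 and Dnajb9, a co-chaperone known as an XBP1 target, had r = 0.55 and rho = 0.61, and within the 8 libraries r was 0.50. Hspa5 and Dnajb9 had r = 0.12 over 12 tumours and -0.22 within the 8, Hspa5 and Ddit3 0.42 and 0.71, and Hspa5 and Atf4 0.25 and 0.32. In the ATF4 and CHOP branch, the same pair of values was 0.27 and -0.07 for Atf4 and Asns, 0.37 and 0.61 for Ddit3 and Trib3, and 0.43 and 0.03 for Ddit3 and Chac1. Without the tumours farthest from the median of Atf4, r of Atf4 and Asns was 0.62. The points of every pair share a library and its cell mixture.

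**Figure D5:**
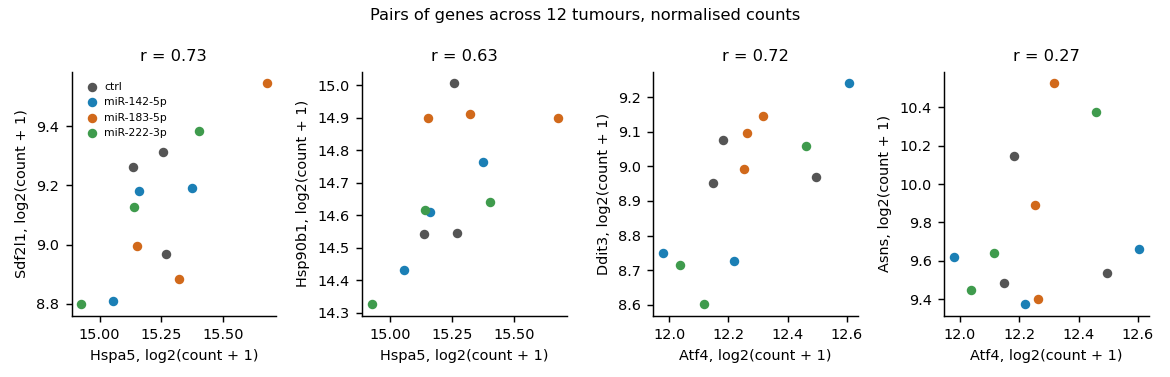
Log2(normalised count + 1) of 4 pairs of genes, 1 point per tumour coloured by EV cargo, with Pearson's r above each panel. Hspa5 and Sdf2l1 (r = 0.73) are stretched by 1 miR-183-5p and 1 miR-222-3p tumour, and r is 0.72 for Atf4 and Ddit3 and 0.27 for Atf4 and Asns.

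A wider list of the pathway held no call either. Of 124 further genes found, 122 passed the count filter, and 0 passed an adjusted p of 0.05 in any comparison with ctrl (DESeq2), with 5 at an unadjusted p under 0.05 for miR-142-5p, 1 for miR-222-3p and 4 for miR-183-5p. Over all genes the shares were 3.58%, 2.32% and 3.21%. Ero1l, the main ER oxidase and also a hypoxia-induced gene, had the lowest p, with normalised counts of 7465, 9670 and 8372 in ctrl and 13830, 12760 and 18740 with miR-183-5p. Its log2 fold change was 0.83 with an SE of 0.27 (DESeq2, unadjusted p = 0.00198, adjusted p = 1), beside the hypoxia markers given above, and 0.64 without tumour 3 (DESeq2, unadjusted p = 0.0283). The lipoprotein receptor Vldlr was next for miR-183-5p, at 44.8, 79.5 and 62.3 normalised counts in ctrl and 129, 115 and 134 with miR-183-5p, a log2 fold change of 1.02 with an SE of 0.40 (DESeq2, unadjusted p = 0.0112, adjusted p = 1) and of 0.97 without tumour 3.

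For miR-142-5p the lowest values were those of Ero1lb, a paralogous oxidase, and Eif2b3, a subunit of the exchange factor that phosphorylated eIF2α inhibits. Ero1lb had 960, 941 and 927 normalised counts in ctrl and 1090, 1041 and 1263 with miR-142-5p, a log2 fold change of 0.27 (DESeq2, unadjusted p = 0.0103, adjusted p = 1), and Eif2b3 had 509, 545 and 492 against 406, 424 and 396, a log2 fold change of -0.34 (DESeq2, unadjusted p = 0.0141, adjusted p = 1). For miR-222-3p they were Traf2, an adaptor of IRE1, and the cystine transporter gene Slc7a11, an ATF4 target. Traf2 had 1053, 934 and 958 normalised counts in ctrl and 784, 793 and 870 with miR-222-3p, a log2 fold change of -0.27 (DESeq2, unadjusted p = 0.00552, adjusted p = 1). Slc7a11 had 923, 500 and 1335 in ctrl and 1317, 1482 and 1165 with miR-222-3p, with overlap and a log2 fold change of 0.52 (DESeq2, unadjusted p = 0.0716, adjusted p = 1).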

How the data were processed

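The authors sequenced poly(A) RNA of 12 tumours (TruSeq Stranded mRNA, paired ends) and deposited 1 Salmon table per tumour; the labels name the build GRCm38. Each table gives, per the file headers, the estimated count (NumReads) and the TPM of 118783 transcripts, and effective lengths. Of these, 98.3% matched GENCODE M21 and were summed to genes. Unmatched transcripts held 0.633% to 0.671% of reads. Expected counts were rounded and fitted with DESeq2 1.42.0 in R 4.3.3 over all 12 libraries, with an offset for gene length, for genes with at least 10 counts in 3 libraries. Wald tests were adjusted by Benjamini-Hochberg over all genes, at 0.05. Normalised counts are size- and length-corrected. TPM, as deposited by the authors, were summed by gene for levels. edgeR 4.0.16, limma 3.58.1 and other settings were alternatives, and the scripts were tested on simulated data. Chi-square tests gave 13.6 to 58.8 per degree of freedom between tumours of a group, so no library repeated another.

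Correlations used 100000 two-sided permutations with numpy 2.4.6, and exact ones within 8 libraries. Ddit3 has 2 identifiers. The one with most reads was used, and the other, a transcript of 105 bases with at most 5.09 reads, was an added alternative chosen after seeing the data. Promoters and microRNAs are from RefSeq, and 3′ UTRs from the leading coding transcript of each gene. Genes with values in every tumour were Hspa5, Xbp1, Atf4 and Ddit3, those with an unadjusted p under 0.05, and the 3 most and 3 least variable. From the wider list the 2 lowest p in each comparison with ctrl were taken. Edem1, Ern1 and P4hb were added after their values were seen. Members and lists were chosen with earlier results of these data known. The precision is limited by 3 tumours per group.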

Additional observations from a re-analysis of the deposited data

How the results depend on the processing

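The count of 0 genes called held in all 117 other fits over the 7 comparisons (edgeR, TMM factors, both count filters, no length offset, the 2 groups alone, limma-trend, copies summed, the replicate block, each tumour left out), where the lowest adjusted p of any of the 32 genes was 0.0638. The replicate block left the count at 0 in each comparison. Tumours share only a number: 5 of 18 same-numbered pairs had residual correlations over 0.1, their mean was -0.04, and 4 of 12 libraries correlated best with one of their own number. Among 19 fold changes followed, some of Atf4, Ddit3 and Hspa5 changed sign. Atf4 was -0.0199 for miR-142-5p under limma-trend and 0.0013 for miR-183-5p with the replicate block. Ddit3 was 0.0825 for miR-222-3p and -0.0169 for miR-183-5p with both identifiers summed. With single tumours left out, Hspa5 ran from -0.113 to 0.0513 for miR-142-5p and from -0.185 to 0.0558 for miR-222-3p. Atf4 ran from -0.181 to 0.14 for miR-142-5p, from -0.207 to 0.0517 for miR-222-3p and from -0.0686 to 0.113 for miR-183-5p, and Ddit3 from -0.262 to 0.0158 for miR-142-5p. On log2(TPM + 1), r was 0.71 for Hspa5 and Sdf2l1 and 0.56 for Atf4 and Ddit3, neither past 0.05 after adjustment (0.0897 and 0.139), and -0.0352 for Hspa5 and Atf4; with group means subtracted the calls for the 10 pairs were as reported. The causes of these shifts were not tested. The spliced share of Xbp1 and its alternatives were not run, since the annotated forms hold no spliced sequence. With 3 tumours per group, changes smaller than the intervals given could not be detected.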

Other observations

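By sublist, the wider pathway genes followed no single direction. The 37 ATF4 and CHOP targets were higher in 6 and lower in 31 cases for miR-142-5p against ctrl, with a median log2 fold change of -0.12, and had medians of -0.04 for miR-222-3p and -0.0015 for miR-183-5p. The 27 genes of translocation, glycosylation and trafficking were higher in 23 cases for miR-183-5p, with a median of 0.08, and had medians of -0.02 for miR-142-5p and 0.05 for miR-222-3p. The 20 genes of folding and oxidation, the 20 of degradation and the 18 of sensors, eIF2 and processing had medians between -0.06 and 0.04 in the 3 comparisons. None of these genes passed an adjusted p of 0.05 in DESeq2, and the directions are those of fitted values.

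The mix of transcript forms differed among the 32 genes. Dnajc3, Sdf2l1, Creld2 and Chac1 have a single annotated form here. Forms annotated as non-coding, such as retained introns, took 29.8% to 46.7% of the TPM of Edem1 and 25.1% to 38.6% of that of Calr. The leading coding form of Syvn1 took 4.78% to 57.4% of its TPM across the tumours, and in miR-142-5p tumour 3 the leading form and a retained-intron form were at their highest, at 15.5 and 8.43 TPM. Sec61b was the only one of the 32 genes with a near-identical copy, Gm10320, which took at most 0.0831% of their shared reads.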
